A study of Mus musculus with 12 samples.

Results

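The genes described here are those whose RNA was nearly absent from at least 1 of 3 Aebp1 knockout clones of NIH3T3, a fibroblast line derived from mouse embryos, while the parental line expressed them. They were chosen from the counts themselves: protein-coding autosomal genes with a parental mean of at least 2 counts per 1000000 counts of the library (CPM) and a mean under 10% of the parental mean in F5, G5 or H7. Hox and collagen genes and a short list of others, such as Igf2 and Lum, were left out by name, and 10 of these met the limit. Of 10365 genes that passed the parental minimum, 92 met the rule, or 0.888%, out of 48795 genes in the table. A gene that met the limit in a clone is called lost there, as a name for the rule and not for a test.

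The 3 clones, F5, G5 and H7, are AEBP1 knockouts, each of them 1 clone, and were sampled at passages 7, 8 and 9 each, and the wild-type parental NIH3T3 line at passages 6, 7 and 8, which gave 12 libraries of ribosome-depleted total RNA in 4 groups of 3. All cells grew in the same serum-containing medium, and the labels do not say how the knockout was made. Knockout and single-cell cloning occur together in each clone and in no parental library, so their parts in any difference cannot be told apart. The labels give a passage and not a separate culture, so p-values measure the spread between these libraries, which may be technical. Aebp1 itself, at chr11:5861947-5872088 (GRCm38), averaged 194 ± 17.3 CPM in F5, 130.0 ± 7.75 in G5, 145 ± 15.0 in H7 and 553 ± 71.1 in the parental line (SD, n = 3 each), or 35%, 23.4% and 26.2% of the parental mean. The clone libraries lay between 124 and 212 CPM and the parental ones between 474 and 611, so RNA of the targeted gene was lower in every clone and not absent.

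A clone descends from 1 cell, so a gene state that this cell hands to its daughters is shared by the whole clone, whereas an uncloned line can hold a mixture of such states. Heritable silence of a gene is known to involve DNA methylation of CpG-rich promoters, Polycomb repression and histone H3 lysine 9 methylation. Cultured lines are also known to gain and lose parts of chromosomes.

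Library totals lay between 22088714 and 31329755 counts. The 14 fibroblast markers summed to 23900 to 27200 CPM in the clone libraries and 25100 to 29800 CPM in the parental libraries. Their median log2 fold change was -0.4 in F5, -0.4 in G5 and -0.21 in H7, against -0.01, -0.01 and -0.02 over all genes. At an edgeR adjusted p under 0.05, 3 were lower in F5, 4 in G5 and 1 in H7, where 7.37%, 6.56% and 9.92% of all genes were. The lost gene Dcn was among those lower in F5 and G5, and 1 marker was higher in H7. The endothelial genes Kdr and Tie1, the immune genes Adgre1 and Cd3e, the epithelial gene Epcam, the muscle genes Myod1 and Myog, the adipocyte gene Cebpa and the glial gene Sox10 had 0 counts in all clones. Of the other markers of these cell types, Cdh1, an epithelial cadherin, was higher in H7, with 0.727 ± 0.195 CPM against 0.0149 ± 0.0257 in the parental line (edgeR adjusted p = 0.00183). Des, of muscle, was higher in G5 and H7, with 0.608 ± 0.389 and 0.669 ± 0.0373 CPM against 0.144 ± 0.0556 (adjusted p = 0.0267 and 0.0111). Of the 3 neural and glial markers tested, 2 were called higher in H7, the neural gene Map2 among them, where 9.64% of all genes were. Ptprc, an immune gene, was called lower in G5. Lpl averaged 22.9 CPM in F5, 16.8 in G5, 29.7 in H7 and 27.6 in the parental line, and Cd68 3.94, 3.99 and 4.66 CPM in F5, G5 and H7 and 3.42 in the parental line; neither was called. The 6 neural and glial markers summed to 16.8 to 60.3 CPM in the clone libraries, highest in H7, and 12 to 19.2 CPM in the parental libraries. The part of these marker differences in the losses was not tested. For the lost genes the parental passage 7 library often had the highest CPM of the 3 parental libraries. It did so for 65 of 92 (70.7%), against 44.5% of the 10365 genes. The middle F5 library, passage 8, was the highest of its line for 65 of 92 too, against 42.2%. Parental libraries differed at least 2-fold from lowest to highest for 56 lost genes (60.9%), against 7.58% of the 10365. The lost genes also had a lower median parental level, 5.62 CPM against 31.3, and its part in that range was not tested. The parental mean that chose the genes includes the parental passage 7 library. Without it 66 genes met the rule, 62 of them among the 92, and the number lost in F5 was 12 in place of 28. In bulk RNA, fewer expressing cells and less RNA per cell cannot be told apart.

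Most of the 92 genes had low parental levels. Their median parental level per length was 3.58 transcripts per 1000000 transcripts (TPM), against 21.3 TPM over the 10365 genes. In CPM, 62 of them had a parental mean under 10 and 3 had 100 or more, namely Cemip, Cd24a and Dcn. H7 lost 58 genes (0.56% of 10365), G5 lost 45 (0.434%) and F5 lost 28 (0.27%). By clone, 11 genes were lost in all 3, 9 in F5 and G5, 6 in G5 and H7, 2 in F5 and H7, and 39, 19 and 6 in H7, G5 and F5 alone. Depth of loss differed too: the median level in the losing clone was 1.77% of the parental mean in H7, 3.38% in G5 and 6.43% in F5. With TPM in place of CPM, 63 genes met the rule, 60 of them among the 92, and H7 lost 37.

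Promoters of 4 lost genes, chosen after their values had been seen, are shown first, as the 250 bases before the transcription start in the sense direction, from RefSeq (GRCm38.p6), with each CG in capitals. B4galnt4, Mccc2 and Vip were lost in all 3 clones, and Ralgps2 had 0 counts in H7 and was near its parental level in both other clones. They lie at chr7:141060728-141060977 on the plus strand for B4galnt4, chr13:100015640-100015889 on the minus strand for Mccc2, chr10:5638968-5639217 on the plus strand for Vip and chr1:156939627-156939876 on the minus strand for Ralgps2.
B4galnt4: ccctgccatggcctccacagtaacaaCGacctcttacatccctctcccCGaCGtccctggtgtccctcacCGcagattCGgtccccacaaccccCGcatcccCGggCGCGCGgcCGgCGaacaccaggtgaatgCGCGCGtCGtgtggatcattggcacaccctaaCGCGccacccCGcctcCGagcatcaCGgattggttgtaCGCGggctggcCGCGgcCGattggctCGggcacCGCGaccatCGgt
Mccc2: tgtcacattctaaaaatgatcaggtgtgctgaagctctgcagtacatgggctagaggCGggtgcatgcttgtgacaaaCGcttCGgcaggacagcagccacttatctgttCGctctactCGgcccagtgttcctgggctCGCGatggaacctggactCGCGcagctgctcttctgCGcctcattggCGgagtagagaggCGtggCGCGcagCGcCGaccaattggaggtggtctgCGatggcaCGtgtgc
Vip: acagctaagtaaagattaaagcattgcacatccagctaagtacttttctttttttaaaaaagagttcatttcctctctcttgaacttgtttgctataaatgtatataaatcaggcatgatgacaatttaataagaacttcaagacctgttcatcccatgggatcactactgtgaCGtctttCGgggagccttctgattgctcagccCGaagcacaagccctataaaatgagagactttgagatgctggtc
Ralgps2: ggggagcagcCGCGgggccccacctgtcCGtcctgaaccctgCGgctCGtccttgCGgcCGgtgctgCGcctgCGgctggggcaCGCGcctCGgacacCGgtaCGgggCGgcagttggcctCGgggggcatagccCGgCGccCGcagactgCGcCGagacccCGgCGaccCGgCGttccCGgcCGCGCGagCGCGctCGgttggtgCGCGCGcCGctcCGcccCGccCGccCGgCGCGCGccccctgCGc
The windows held 44 CG in Ralgps2, 30 in B4galnt4, 18 in Mccc2 and 3 in Vip, against a median of 16 over 9445 protein-coding genes tested that have an entry. The letters TATAAA, searched on both strands, occurred in the Vip window and in 6.14% of those 9445 windows. CCAAT on either strand occurred in the B4galnt4 and Mccc2 windows and in 37.6% of the 9445. No window shown held both motifs. So CG-rich and CG-poor starts both occurred among these 4 genes. Promoters were found for 65 of the 92 genes (70.7%), too few for a comparison of composition, which was set at 80%.

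There were 11 genes lost in all 3 clones, with roles in growth factor signalling, glycans, metabolism and neurons. B4galnt4, a transferase that adds N-acetylgalactosamine to glycans, had 0 counts in the 3 F5 libraries, 4 counts in all in G5 and 0 in the 3 H7 libraries. Its parental libraries held 5.48, 6.41 and 6.06 CPM at passages 6, 7 and 8, or 422 counts. With a limit of 3 counts over the libraries of a clone, its level in F5 was lower by at least 166-fold, and in H7 by at least 158-fold, limits that cover counting error only. Mccc2 encodes the beta subunit of methylcrotonyl-CoA carboxylase, a mitochondrial enzyme of leucine breakdown. It had 7 counts in F5, 2 in G5 and 0 in H7, against 221 in the parental line, where CPM were 2.85, 3.64 and 2.88. Both genes were even across the parental passages, and no clone library came near a parental one.

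Egfr, the receptor of EGF and related growth factors, had 0.721, 1.44 and 0.776 CPM in F5, 0.213, 0.362 and 0.246 in G5, and 1.06, 3.70 and 2.99 in H7. The parental libraries had 9.94, 58.6 and 11.7 CPM. All clone libraries lay below all parental ones, and the parental value at passage 7 was far above both others. Vip, a secreted neuropeptide, was low in every clone, with a mean of 0.22 ± 0.192 CPM in F5, of 0.411 ± 0.258 in G5 and of 0.649 ± 0.291 in H7, against 18.1, 13.4 and 15.4 CPM in the parental libraries. Dapk1, a calcium- and calmodulin-regulated death-associated kinase, stood at 3.04%, 2.09% and 6.08% of the parental mean in F5, G5 and H7. Scn7a, a sodium channel subunit, had 10 counts in F5, 0 in G5 and 1 in H7, and 0.891, 8.65 and 1.57 CPM in the parental libraries. The others were Slc27a6, a fatty acid transport protein, Parp12, an interferon-inducible ADP-ribosyltransferase, Dlg2, a synaptic scaffold, Abi3bp, an extracellular matrix protein, and Rtn4rl2, a relative of the Nogo receptor. Scn7a, Abi3bp, Dlg2 and Rtn4rl2 did not meet the rule without the parental passage 7 library, and 5 genes in place of 11 were then lost in all 3 clones.

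**Figure D1:**
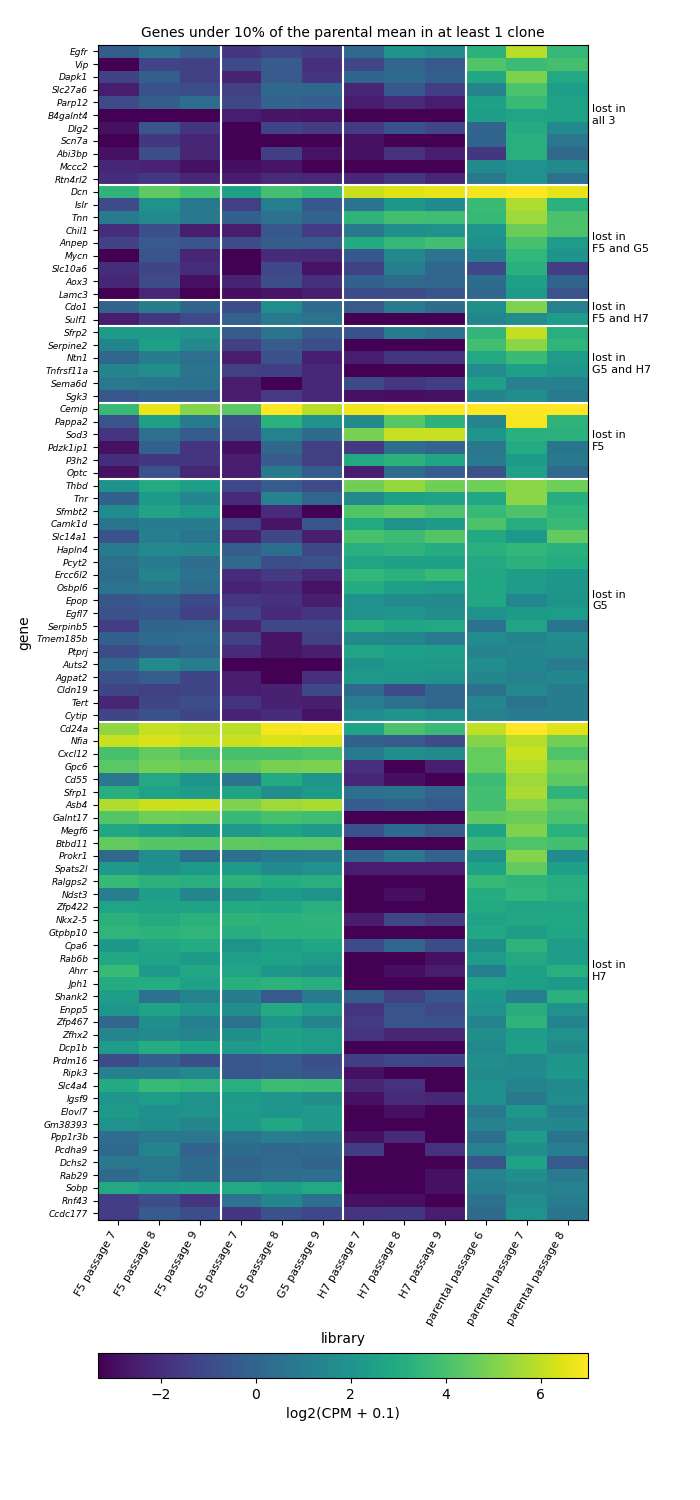
Each row is 1 of the 92 genes and each column a library, clones first and the parental line last; colour is log2(CPM + 0.1) and white lines part the groups of clones that lost the gene. Most of the 39 genes lost in H7 alone are dark in H7 and brighter in F5 and G5, and the parental passage 7 column is brighter than its neighbours for many genes.

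The 9 genes lost in F5 and G5 stood at a median of 33.9% of parental in H7. Decorin (Dcn), a small leucine-rich proteoglycan that binds collagen, had 10.3, 21.7 and 14.7 CPM in F5 and 5.71, 14.8 and 11.4 in G5, with 71.3, 90.3 and 97.3 in H7. Parental libraries held 112, 353 and 101 CPM, above every clone library. All F5 and G5 libraries lay below those of H7. Chil1, a secreted chitinase-like protein, had 0.152, 0.479 and 0.0776 CPM in F5, 0.0709, 0.589 and 0.246 in G5, and 1.65, 3.45 and 3.88 in H7, against 4.23, 25.0 and 17.3 in the parental libraries. The 4 lines thus stood at 3 levels, lowest in F5 and G5, with H7 between them and the parental line without overlap. Anpep, a membrane aminopeptidase, had 0.304, 0.638 and 0.543 CPM in F5 and 0.425, 0.724 and 0.657 in G5, but 7.84, 11.5 and 14.9 in H7. Its parental values of 3.48, 15.9 and 5.02 CPM overlapped those of H7. The others were Islr, Tnn (a tenascin of the extracellular matrix), Mycn (a transcription factor of the MYC family), Slc10a6 (a transporter of steroid sulfates), Aox3 (an aldehyde oxidase) and Lamc3 (a laminin chain), which stood between 11.8% and 53.1% of parental in H7. Anpep, Aox3, Dcn, Lamc3 and Slc10a6 did not meet the rule without the parental passage 7 library.

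All 6 genes lost in G5 and H7 also met the rule without the parental passage 7 library. Serpine2, a secreted inhibitor of thrombin and other serine proteases, had 2.39, 5.75 and 2.79 CPM in F5 and 0.284, 0.679 and 0.451 in G5, and it had 0 counts in H7. The parental libraries had 14.6, 37.0 and 10.6 CPM, or 1493 counts, so H7 was at least 546-fold lower. Ntn1, the guidance protein netrin 1, had 1.02, 1.95 and 1.28 CPM in F5, 0.0709, 0.498 and 0.0821 in G5, and 0.0784, 0.216 and 0.194 in H7, against 7.35, 12.9 and 4.97 in the parental libraries. F5 lay between the other clones and the parental line for both genes. Tnfrsf11a, the receptor RANK, stood at 56.8% in F5 and 5.31% in G5, and had 0 counts in H7 against 303 in the parental line. Sfrp2, a secreted Wnt antagonist, stood at 15.9%, 3.22% and 4.48%, and its parental value at passage 7, 66.5 CPM, was far above the 11 and 9.03 CPM of the others. Sema6d, a semaphorin, and Sgk3, a kinase, completed the group. Sulf1, an extracellular enzyme that removes sulfate from heparan sulfate, and Cdo1, cysteine dioxygenase, were lost in F5 and H7. Sulf1 had 0.0759, 0.223 and 0.388 CPM in F5, 0.851, 1.68 and 1.48 in G5 and 0 counts in H7, against 2.54, 3.36 and 5.10 CPM in the parental libraries. Cdo1 stood at 9.96% of parental in F5 and 9.75% in H7, close to the limit, and at 12.5% in G5, and it did not meet the rule without the parental passage 7 library.

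Only 6 genes were lost in F5 alone, and none of the 6 met the rule without the parental passage 7 library. They were also low in G5, at a median of 13.5% of parental, with a range of 10.7% to 33.1%. In H7 their median was 38.4%, with a range of 21.9% to 728%. Cemip, which binds hyaluronan and promotes its breakdown, had 12.8, 105 and 33.6 CPM in F5, 20.5, 153 and 59.7 in G5 and 110.0, 438 and 265 in H7. Parental libraries held 148, 1050.0 and 404 CPM. The middle library was the highest in every line, and the F5 and parental ranges did not overlap. Sod3, the extracellular superoxide dismutase, had 0.19, 1.28 and 0.698 CPM in F5 and 0.355, 2.22 and 1.15 in G5, against 29.1, 68.9 and 69.8 in H7. The parental libraries had 4.10, 9.29 and 9.64 CPM, so that H7 stood at 728% of parental and F5 at 9.40%. P3h2, a prolyl 3-hydroxylase, showed the same order, with 6.83% in F5, 12.5% in G5 and 295% in H7. Pappa2, Pdzk1ip1 and Optc stood between 6.14% and 9.45% of parental in F5.

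The 19 genes lost in G5 alone included surface receptors and regulators of chromatin. Thrombomodulin (Thbd), a membrane receptor of thrombin, had 3.72, 7.76 and 5.35 CPM in F5, 0.355, 0.679 and 0.41 in G5, and 26.9, 40.6 and 27.3 in H7. Parental libraries held 26.1, 36.2 and 26.4 CPM, overlapping H7 and above every F5 and G5 library. Sfmbt2, a Polycomb group protein, had 3.11, 6.38 and 4.62 CPM in F5, 0, 0.136 and 0 in G5, and 18.2, 21.6 and 17.1 in H7, against 12.5, 17.3 and 10.9 in the parental libraries. G5 held 3 counts of it in all, against 964 in the parental line. Auts2, a nuclear regulator that can join Polycomb complexes, had 0.987, 2.84 and 1.98 CPM in F5, 0 counts in G5, and 3.80, 5.03 and 4.69 CPM in H7, against 3.21, 2.56 and 1.92 CPM in the parental libraries, so G5 was at least 63.8-fold lower. F5 overlapped the parental line and H7 lay above it. Camk1d, a calcium-dependent kinase, stood at 14.2% of parental in F5, 2.26% in G5 and 42.4% in H7. Slc14a1, a urea transporter, stood at 11.7%, 1.46% and 137%. Tert, the reverse transcriptase of telomerase, had 0.114, 0.351 and 0.465 CPM in F5, 0.177, 0.0905 and 0.0821 in G5, and 2.04, 1.29 and 0.97 in H7, against 2.63, 1.52 and 1.96 in the parental libraries. H7 overlapped the parental line, and F5 and G5 lay below both. The others were Tnr (a tenascin), Hapln4 (a hyaluronan link protein), Pcyt2 (an enzyme of phosphatidylethanolamine synthesis), Ercc6l2, Osbpl6, Epop (a partner of Polycomb complexes), Egfl7, Serpinb5 (maspin), Tmem185b, Ptprj, Agpat2, Cldn19 (a claudin) and Cytip. They stood between 1.72% and 8.99% of parental in G5. Tnr, Serpinb5 and Cldn19 did not meet the rule without the parental passage 7 library.

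H7 alone lost 39 genes, and its losses went deepest. Across its 58 lost genes H7 had 0 counts for 14, whereas F5 had 0 counts for 1 of 28 and G5 for 2 of 45. Galnt17, of the transferases that begin mucin-type glycans, had 18.8, 26.6 and 24.6 CPM in F5, 11.9, 15.9 and 13.8 in G5 and 0 counts in H7. The parental libraries had 22.5, 25.8 and 16.6 CPM, and H7 was at least 570-fold lower. Btbd11 had 20.3 ± 2.22 CPM in F5, 20.8 ± 0.502 in G5, 0 counts in H7, and 15.2 ± 2.25 in the parental line, so H7 was at least 401-fold lower. Ralgps2, an activator of Ral GTPases, had 12.1, 9.80 and 8.81 CPM in F5, 10.1, 8.38 and 8.86 in G5 and 0 counts in H7, against 11.9, 10.3 and 8.55 CPM in the parental libraries, a difference of at least 271-fold for H7. F5, G5 and the parental line overlapped. Gtpbp10, a GTPase of mitochondrial ribosome assembly, Zfp422, a zinc finger protein, and Jph1, a junctophilin of muscle membranes, also had 0 counts in H7, against 446, 490 and 390 in the parental line. For each of these 6 genes F5 and G5 stood between 64.1% and 166% of parental.

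The genes lost in H7 alone with the highest parental levels were Cd24a, Nfia, Cxcl12, Gpc6, Cd55 and Sfrp1. Cd24a, a surface glycoprotein, had 38.4, 68.3 and 60.4 CPM in F5, 60.6, 117 and 127 in G5, and 6.27, 16.5 and 12.6 in H7, against 63.9, 198 and 92.8 in the parental libraries. H7 lay below all other libraries. Nfia, a transcription factor of the nuclear factor I family, had 70.5, 81.8 and 70.4 CPM in F5, 72.9, 86.1 and 78.0 in G5, and 0.823, 0.682 and 0.427 in H7. Parental libraries held 33.7, 59.3 and 28 CPM, below every F5 and G5 library and above every H7 library. Gpc6, a heparan sulfate proteoglycan of the cell surface, had 20.3, 27.8 and 25.3 CPM in F5, 22.2, 29.5 and 30.9 in G5, and 0.161, 0 and 0.0842 in H7, against 23.4, 58.4 and 26.0 in the parental libraries. Cd55, which shields cells from complement, had 1.59, 7.47 and 3.95 CPM in F5, 1.45, 7.78 and 4.10 in G5, and 0.118, 0.0359 and 0 in H7, against 13.3, 44.5 and 21.3 in the parental libraries. F5 and G5 overlapped the parental line for Gpc6 and lay below it for Cd55. Cxcl12, a chemokine of stromal cells, stood at 50.5%, 44.8% and 7.20% in F5, G5 and H7, and Sfrp1, a Wnt antagonist, at 26.6%, 19.2% and 4.53%. Slc4a4, a sodium bicarbonate cotransporter, had 7.89, 12.4 and 10.6 CPM in F5, 8.76, 13.4 and 13.0 in G5, and 0.118, 0.18 and 0 in H7, against 3.48, 2.36 and 2.88 in the parental libraries. Every F5 and G5 library lay above the parental ones and every H7 library below them. The cardiac homeobox factor Nkx2-5 also had every F5 and G5 library above the parental ones and every H7 library below them, at 133%, 150.0% and 3.29% of the parental mean in F5, G5 and H7. Asb4 stood at 277%, 184% and 3.17%, and its G5 libraries, at 31.6, 45.3 and 52.0 CPM, overlapped the parental ones at 14.9, 35 and 20.3.

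The other genes lost in H7 alone included the surface or secreted proteins Megf6, Igsf9, Pcdha9 (a protocadherin), Dchs2 (a cadherin) and Prokr1 (a prokineticin receptor). There were enzymes among them, namely Ndst3 (an N-sulfotransferase of heparan sulfate), Cpa6 (a carboxypeptidase), Enpp5, Elovl7 (a fatty acid elongase), Rnf43 (a ubiquitin ligase that limits Wnt receptors) and Ripk3. Beside them were Dcp1b (a cofactor of mRNA decapping) and Ppp1r3b, a phosphatase subunit that directs the phosphatase to glycogen. Regulators of transcription were Ahrr (a repressor of the aryl hydrocarbon receptor), Prdm16, Zfp467 and Zfhx2. The small GTPases Rab6b and Rab29, the synaptic scaffold Shank2, and Spats2l, Sobp, Ccdc177 and Gm38393 completed the group. In H7 these genes and Cd24a ranged between 0 counts and 9.96% of parental. Without the parental passage 7 library 28 of the 39 met the rule, and the 11 that did not included Cd24a and Cxcl12. Gm38393 overlaps Snrpn on the same strand and Pcdha9 overlaps other genes of its cluster on the same strand, so their counts are uncertain. Dcp1b overlaps Cacna1c, and Egfl7 overlaps Agpat2, on opposite strands, and whether counting used strand is not stated in the sources used here.

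**Figure D2:**
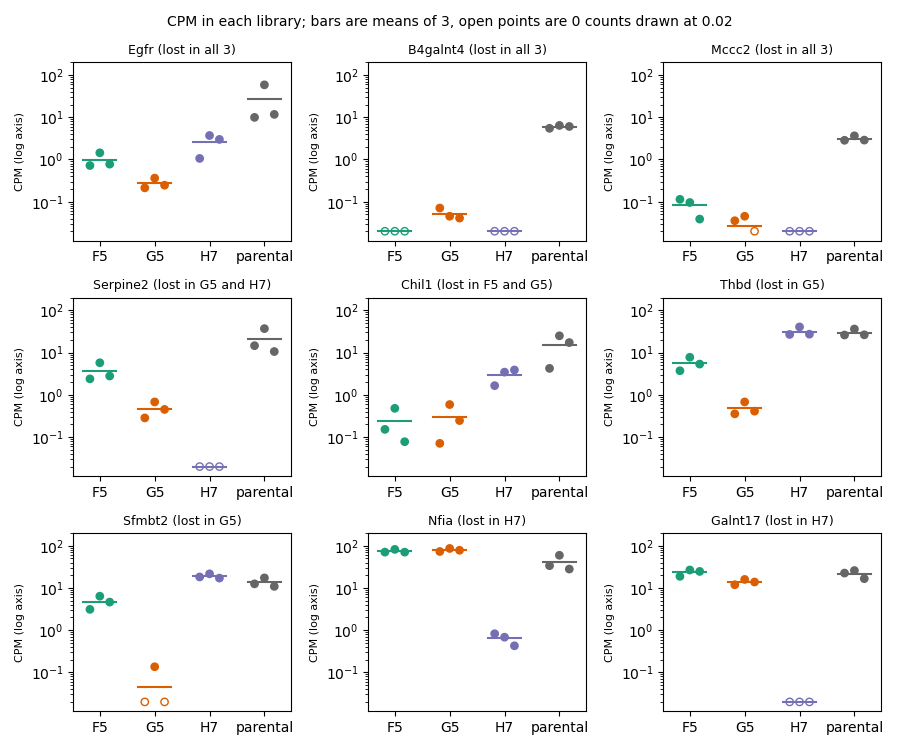
CPM on a log axis for 9 genes in each library, with F5, G5 and H7 left of the parental line; bars are means of 3 and open points are 0 counts drawn at 0.02. B4galnt4 and Mccc2 lie far below the parental points in every clone, Thbd and Sfmbt2 lie lowest in G5 with F5 between, and Nfia and Galnt17 are low in H7 alone.

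All libraries of the losing clone lay below all parental libraries for 58 of 58 genes in H7, 43 of 45 in G5 and 24 of 28 in F5. Since the rule used these contrasts, this is a description. Over all 14704 genes tested with edgeR's quasi-likelihood F-test, 9.92% were called lower in H7, 6.56% in G5 and 7.37% in F5. By the lowest clone of each gene, Cd24a at 9.96% and Cdo1 at 9.75% in H7 lay just inside the limit, and C4b at 10.3% in G5 and Kcnk10 at 10.4% in F5 just outside. At the parental minimum, Cytip at 2.02 CPM and Tert at 2.04 CPM lay inside, and Lmcd1 at 1.88 CPM and Acan at 1.81 CPM outside.

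What the rule left free was the difference between the 2 clones that kept a gene. The genes lost in G5 alone stood at a median of 19.8% of parental in F5, with a range of 10.2% to 75.5%, and of 107% in H7, with a range of 27.8% to 242%. Between F5 and H7, 17 of these 19 were called, all lower in F5, at an adjusted p under 0.05 in edgeR's quasi-likelihood test. That is 89.5%, against 17.9% of all 14704 genes (background in either direction) and 8.49% lower in F5. The median log2 difference of F5 against H7 was -2.22. Egfl7, a secreted protein of blood vessels, had a log2 difference of -3.03 ± 0.26 (SE; adjusted p = 2.99e-05), Ptprj, a receptor tyrosine phosphatase, -3.05 ± 0.27 (adjusted p = 3.18e-05) and Thbd -2.52 ± 0.26 (adjusted p = 0.00011). Only Tnr and Cldn19 of the 19 were not called. F5 was thus the lower of the 2 clones for nearly all genes lost in G5 alone, and over all genes 38 of 14704 (0.258%) were called between F5 and G5.

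The genes lost in H7 alone stood at a median of 68.9% of parental in F5 and 84.4% in G5, with ranges of 13.4% to 353% and 12.4% to 403%. Between F5 and G5, 1 of 39 was called (2.56%, against 0.258% of all genes). It was Ripk3, a kinase of necroptotic cell death, with 2.13, 2.14 and 2.83 CPM in F5 and 0.567, 0.679 and 0.574 in G5, a log2 difference of 1.96 ± 0.29 (SE; edgeR adjusted p = 0.0148). With the passage number as a replicate block edgeR called 0 of 39 (7 before adjustment, at a p under 0.05). DESeq2 called 3. Without F5 passage 9 or any 1 of the G5 libraries the count was 0. Without parental passage 7 it was 2, where 0.382% of all genes were called. Of the 6 genes lost in F5 alone, 2 were called between G5 and H7 (33.3%, against 17.4% of all genes), both lower in G5, as were 8.51% of all genes. These were Sod3 at -5.58 ± 0.62 (adjusted p = 0.000137) and P3h2 at -4.66 ± 0.56 (adjusted p = 0.000262). With the order of passage as a replicate block it was 4 of 6, where 29.6% of all genes were called.

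**Figure D3:**
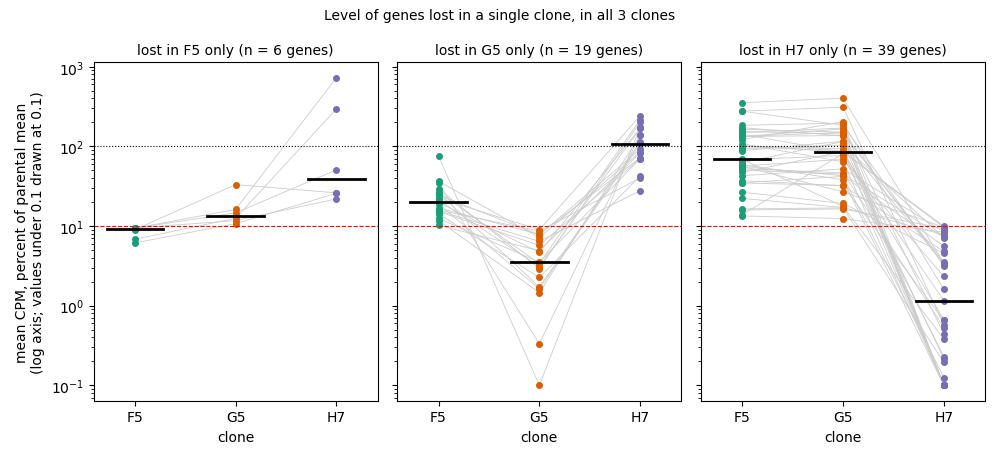
Mean CPM as a percent of the parental mean on a log axis, in F5, G5 and H7, for genes lost in F5, G5 or H7 alone; grey lines join a gene, black bars are medians, the dashed line is 10% and the dotted line 100%. Genes lost in F5 alone sit at a median of 13.5% in G5, and genes lost in G5 alone at 19.8% in F5. Genes lost in H7 alone sit at 68.9% in F5 and 84.4% in G5.

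The middle library of each line, passage 8 in the clones and 7 in the parental line, was compared with the mean of the outer 2 in a fit with group as a term. Of the 92 genes 46 were called higher (against 16.5% of all genes tested) and 1, Shank2, lower (15.6% of all genes). The median log2 difference was 0.57 over the 92 and 0.02 over all genes. Without the parental passage 7 library 29 were called higher, against 12.5% of all genes tested in that fit. Cemip had a log2 difference of 1.98 ± 0.11 (SE; edgeR adjusted p = 3.56e-05), Abi3bp of 3.66 ± 0.33 (adjusted p = 0.000207), Optc of 2.67 ± 0.28 (adjusted p = 0.000309), and Pappa2, a protease of IGF-binding proteins, of 3.09 ± 0.34 (adjusted p = 0.000379). A high parental passage 7 value also raises the parental mean by which genes were chosen, so the clones were also examined alone. The 92 genes were still chosen through that library, whose deviations correlated with those of clone passage 8 (r of 0.55 to 0.664). Counts in the clones alone are therefore not independent of the choice. In the 9 clone libraries 30 of 92 were called higher (32.6%) and 2 lower, against 13.3% and 14.2% of all genes. Within lines, the middle library was the highest for 70.7% of the 92 in F5, 59.8% in G5 and 47.8% in H7, against 42.2%, 31.9% and 30.5% of the 10365 genes.

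The calls were spread unevenly over the clones that lost the gene, though differences between these groups of genes were not tested. All 9 genes lost in F5 and G5 and all 6 lost in F5 alone were called higher, as were 8 of 11 lost in all 3 clones and 16 of 39 lost in H7 alone. Of those lost in G5 alone it was 3 of 19 (15.8%), near the 16.5% of all genes. These counts include the parental passage 7 library, and they follow in part from how the genes were chosen. Without that library the rule was met by 0 of 6 genes lost in F5 alone, 4 of 9 lost in F5 and G5 and 7 of 11 lost in all 3. It was met by 28 of 39 lost in H7 alone and 16 of 19 lost in G5 alone. In the 9 clone libraries alone, 5 of 9 lost in F5 and G5, 5 of 6 lost in F5 alone, 5 of 11 lost in all 3, 10 of 39 lost in H7 alone and 2 of 19 lost in G5 alone were called higher, against 13.3% of all genes. Among the 62 genes that also met the rule without the parental passage 7 library, 20 were called higher over all libraries (32.3%) and 14 in the clones alone (22.6%, against 13.3%). Among the 30 that did not, these counts were 26 (86.7%, against 16.5%) and 16 (53.3%, against 13.3%).

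**Figure D4:**
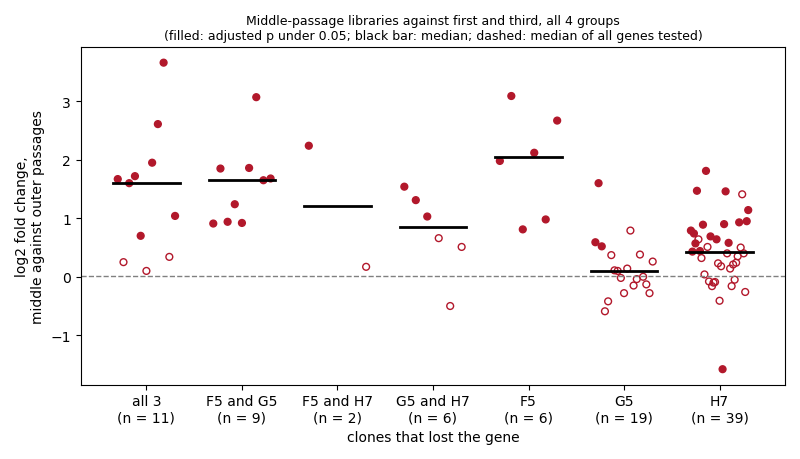
Log2 fold change of the middle library against the outer 2, over 4 lines, for each gene by the clones that lost it; filled points have an adjusted p under 0.05, black bars are medians and the dashed line is the median of all genes tested. Genes lost in F5 lie mostly above 0, while those lost in G5 alone have a median near the dashed line.

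Between the third and the first library, edgeR called 3 of 92 higher, against 0.741% of all genes. They were Cemip, Sod3 and Cd24a, with log2 differences of 1.38, 1.27 and 0.79. EdgeR called 0 lower, against 0.374% of all genes, with 5 lower at an unadjusted p under 0.05. DESeq2 also called 0 lower, with 2 lower before adjustment. Without the parental passage 7 library the counts were 14 higher and 3 lower, where 4.46% of all genes tested were called higher and 4.59% lower, and without F5 passage 9, H7 passage 9 or parental passage 6 the count higher was 1.

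The lost genes were spread over 17 of 19 autosomes, with none on chromosomes 15 and 19. Chromosome 1 carried 19 of 92 (20.7%), where 5.94% of the 10365 genes lie, with 6 lost in F5, 9 in G5 and 11 in H7. Chromosome 2 carried 12, and all 12 were lost in G5, which is 26.7% of the genes lost in G5, against 8.36% of the 10365 genes. Of those lost in G5 alone, 8 of 19 lay there: Sfmbt2, Camk1d, Egfl7, Agpat2, Cytip, Osbpl6, Ptprj and Thbd. Chromosome 6 carried 7, all lost in H7 (12.1% of its losses, against 4.86%). The median log2 fold change of all genes of chromosome 1 was -0.08 in F5, -0.14 in G5 and -0.14 in H7, against -0.01, -0.01 and -0.02 over all genes. That of chromosome 2 in G5 was -0.04, and that of chromosome 6 in H7 was -0.22. Chromosome 7, with 14.3% of the genes lost in F5 against 7.71% of the 10365, had a median of -0.2 in F5. Chromosome 10 in H7 had a median of -0.21. The part of these medians in the losses was not tested. In H7 the genes of chromosome 15, where no gene was lost, had a median log2 fold change of 0.45.

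A few lost genes lay side by side. Egfl7 and Agpat2, an enzyme of phospholipid synthesis, overlap at chr2:26580014-26604417 and both were lost in G5. Megf6 and Prdm16, 40.4 kb apart on chromosome 4, were both lost in H7, and Tnr and Tnn, 2 tenascins 153 kb apart on chromosome 1, both in G5. Zfhx2 and Ripk3 were both lost in H7 with 21 tested genes between them on chromosome 14, of which 2 were called lower. Between Sobp and Cd24a, 404 kb apart on chromosome 10 and both lost in H7, it was 1 of 5. On chromosome 1, Sgk3 and Cpa6 lie 424 kb apart and were both lost in H7, where all 3 tested genes between them were called lower. The median log2 fold change of those 3 was -0.41, where that of all chromosome 1 genes in H7 was -0.14. Sulf1, also lost in H7, lies 1970 kb from Cpa6, and the 1 tested gene between, Prex2, was called lower there, at -0.41. Of the 3 tested genes between Optc and Chil1, both lost in F5, 0 were called lower there, with a median of -2.67. Between Zfp422 and Cxcl12, both lost in H7, it was 0 of 1. Galnt17 and Auts2 lie 129 kb apart on chromosome 5, with no tested gene between, and were lost in different clones. Galnt17 was lost in H7 and stood at 64.1% in G5, whereas Auts2 was lost in G5 and stood at 176% in H7.

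For each lost gene, the nearest tested protein-coding gene outside the 92 was taken on each side, in the clone with the loss. Of 253 such neighbours and clones, 54 were called lower (21.3%) and 17 higher (6.72%) against the parental line, where 7.95% and 7.69% of all genes were. Without neighbours that had been left out by name, such as Lum and Snrpn, 51 of 249 were lower (20.5%) and 17 higher (6.83%). The neighbour of a gene lost in more than 1 clone counted once for each clone, so the 253 are not separate genes. By clone the neighbours called lower were 14 of 56 in F5 (7.37% of all genes), 14 of 87 in G5 (6.56%) and 26 of 110 in H7 (9.92%). Those called higher were 3, 6 and 8, against 6.88%, 6.54% and 9.64% of all genes. Within 100 kb, 37 of 141 were lower (26.2%) and 8 higher (5.67%). The median log2 fold change of the 253 was -0.09, against -0.01 for all genes, and the median of its size without sign was 0.24, against 0.2. Notch1, the receptor gene 63.4 kb from Egfl7, averaged 20 ± 1.34 CPM in G5 and 56.9 ± 11.9 in the parental line, a log2 fold change of -1.52 ± 0.13 (SE; edgeR adjusted p = 5.95e-05). Thtpa, 2.46 kb from Zfhx2, averaged 0.322 ± 0.221 CPM in H7 and 3.03 ± 0.47 in the parental line (log2 fold change -3.20; adjusted p = 0.000203).

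Further neighbours were lower with a lost gene. Lum, which encodes another small proteoglycan and lies 47.0 kb from Dcn, had a log2 fold change of -3.71 in F5 (adjusted p = 0.000418) and of -3.71 in G5 (adjusted p = 0.000396). Lum had been left out by name though it met the limit. Krba1 near Zfp467 averaged 7.37 ± 0.883 CPM in H7 and 23.3 ± 8.47 in the parental line (log2 fold change -1.63; adjusted p = 0.000506). Snrpn, which overlaps Gm38393, had 0 CPM in H7 and 2.41 ± 0.158 in the parental line. In the opposite direction, Sspo, 2.4 kb from Zfp467 on the other side of it from Krba1, averaged 3.53 ± 1.89 CPM in H7 and 0.0831 ± 0.0803 in the parental line (log2 fold change 5.32; adjusted p = 0.00657). Slamf9, 3.21 kb from Igsf9, rose by 3.18 in H7 at under 1 CPM (adjusted p = 0.0208), and Cd93, 28.5 kb from Thbd, rose by 1.40 in G5 (adjusted p = 0.0391). B3galt1, 781 kb from Scn7a, rose by 2.14 on the log2 scale in F5 (adjusted p = 1.86e-05) and by 2.04 in G5 (adjusted p = 1.31e-05). With the order of passage as a block, 85 neighbours were called lower and 28 higher, in a fit that called 15.2% of all genes lower and 14.3% higher as a mean over the clones.

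**Figure D5:**
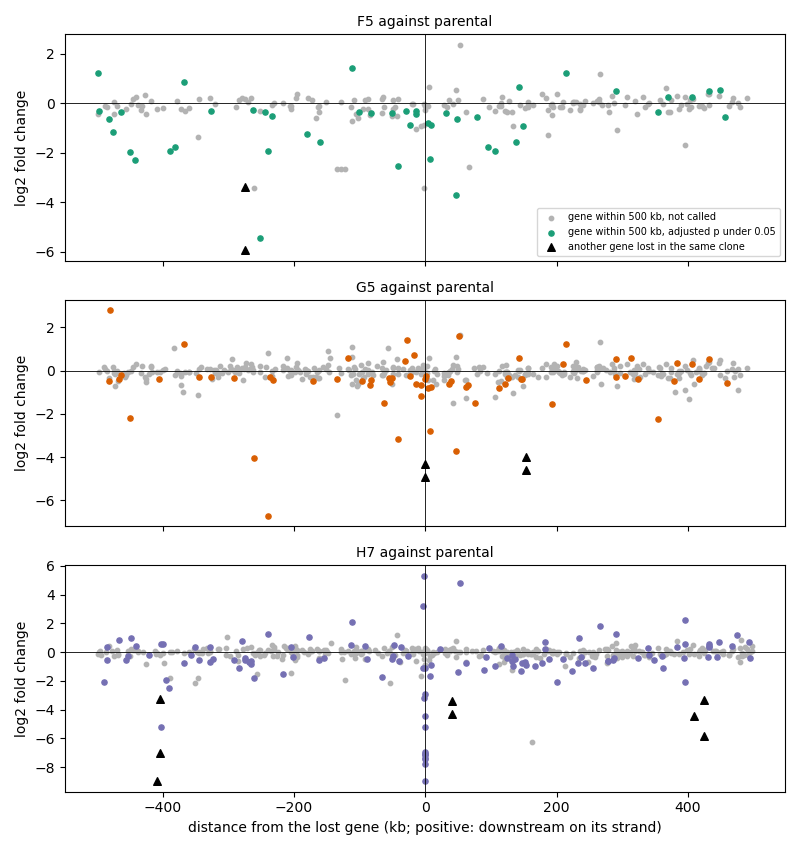
Log2 fold change of each clone against the parental line for tested protein-coding genes within 500 kb of a lost gene, by distance in kb along its strand; coloured points have an adjusted p under 0.05 and triangles are other lost genes. Most points lie near 0, with scattered low values. The low points at or near 0 kb in H7 include Snrpn, genes that overlap Pcdha9, Cacna1c, which overlaps Dcp1b, and 9030612E09Rik, 0.173 kb from Sobp.

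Genes of the machinery known to hold genes silent or open were called in both directions, at a share near that of all genes in H7. Over 115 tested genes on 5 lists of regulators of DNA methylation, Polycomb, histone H3 lysine 9 methylation, deacetylation and activation, F5 had 4 called higher and 9 lower, G5 5 and 5, and H7 10 and 12. Those called in either direction were 11.3% in F5, 8.7% in G5 and 19.1% in H7, against 14.3%, 13.1% and 19.6% of all genes. The lists' medians lay between -0.13 and 0.06 on the log2 scale. In these lists Uhrf2, a ubiquitin ligase that binds modified DNA, averaged 53.7 ± 2.42 CPM in F5, 54.6 ± 2.62 in G5, 42.0 ± 2.24 in H7 and 65.3 ± 4.71 in the parental line. It fell in each clone, by 0.29, 0.27 and 0.61 on the log2 scale (edgeR adjusted p = 0.0153, 0.0211 and 0.000134). Yaf2, of a Polycomb repressive complex, averaged 20.5 ± 1.76, 21.8 ± 0.946 and 28.6 ± 1.54 CPM and 15.3 ± 0.536 in the parental line, and rose in each clone, by 0.42, 0.50 and 0.93 (adjusted p = 0.00761, 0.00338 and 4.32e-05). Pcgf5, another Polycomb subunit, also rose in each clone, by 0.54, 0.71 and 0.45.

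Tle3, a corepressor, fell in each clone, by 0.44, 0.41 and 0.48 on the log2 scale (adjusted p = 0.00248, 0.00366 and 0.000916), and Ehmt1, a histone H3 lysine 9 methyltransferase, by 0.21, 0.22 and 0.24. The deacetylase Sirt1 fell in F5 by 0.64 and in H7 by 0.90. Mbd2, which binds methylated DNA, rose in H7 by 0.53. Dnmt1, the maintenance DNA methyltransferase, averaged 217 ± 24.7 CPM in F5, 210.0 ± 29.7 in G5, 243 ± 10.3 in H7 and 229 ± 37.7 in the parental line, and was not called in any clone. Ezh2, the Polycomb methyltransferase, was not called in any clone either (adjusted p between 0.281 and 0.73). The counts on these lists moved with the settings: with the order of passage as a block, F5 had 11 higher and 24 lower, G5 14 and 15, and H7 16 and 23. In that fit 30.4%, 25.2% and 33.9% of the 115 were called in F5, G5 and H7, against 28.7%, 26.8% and 32.7% of all genes.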

How the data were processed

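Total RNA of 12 libraries was measured by RNA-seq. The authors deposited estimated counts for 48795 genes and TPM for the same genes. Per the submitters' processing notes the build is GRCm38. The aligner, counter and strand setting are not stated in the sources used here. The deposited counts were rounded for tests; 86.9% of those above 0.5 were whole to within 0.01. Symbols and coordinates come from GENCODE M21, which matched 48435 IDs. CPM used column sums. All 92 genes passed edgeR's filterByExpr, which left 14704.

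Tests between lines used the quasi-likelihood F-test of edgeR with TMM factors and group as the term (12 libraries in 1 fit, 8 residual degrees of freedom). Passage contrasts came from a second fit, with order of passage as a term beside group and fewer residual degrees of freedom. The fit to the 9 clone libraries alone was built in the same way. Benjamini-Hochberg adjustment was over all genes, with calls at an adjusted p under 0.05. The F-test was also run on counts simulated with independent noise in each library, so that run does not cover correlation between libraries. Tools were edgeR 4.0.16, DESeq2 1.42.0 and limma 3.58.1 in R 4.3.3, and Python 3.11.15, pandas 2.3.3, numpy 2.4.6 and matplotlib 3.10.9. The limit for 0 counts was 3 counts over the libraries of a group, or 0.0359 CPM for F5, 0.0402 for G5 and 0.0379 for H7. Deviations from group means correlated between same-numbered clone passages (r of 0.261 to 0.73 over 9 pairs), while those of the parental line with same-numbered clone passages lay between -0.68 and -0.303. Passage numbers therefore pair the clones with each other and not with the parental line. By order of passage the parental libraries correlated with those of the clones at r of 0.011 to 0.664 over 9 pairs, 2 of them under 0.1. In tests between lines, order therefore served as an alternative block only.

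The genes and lists were chosen with earlier results of these data known. A rule named the 6 genes with the highest parental CPM for each set of clones (12 for all 3), those nearest the limit, those first by adjusted p in the passage contrasts and among neighbours within 100 kb, and up to 4 of each chromatin list. Genes with 0 counts, close pairs, chromosomes, relatives and all other genes named were chosen once their values had been seen. The alternatives tried were other limits, minimums, scalings, units and tools, no filter, replicate blocks, and each library left out in turn.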

Additional observations from a re-analysis of the deposited data

Results flagged for a closer look

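The clones that kept a gene lost in 1 clone alone were also compared with each other. Of the genes lost in G5 alone, 17 of 19 were called between F5 and H7 by edgeR's quasi-likelihood test, all lower in F5. Over all genes 17.9% were called there in either direction and 8.49% lower in F5, while 0.258% were called between F5 and G5. Of those lost in F5 alone, 2 of 6 were called between G5 and H7 (against 17.4% of all genes), namely Sod3 and P3h2, both lower in G5. With the order of passage as a replicate block it was 4 of 6, against 29.6% of all genes. Of those lost in H7 alone, 1 of 39 was called between F5 and G5 (against 0.258% of all genes), namely Ripk3, which was higher in F5. With the passage number as a replicate block it was 0, against 0.143% of all genes. What lies behind these differences was not tested.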

How the results depend on the processing

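Of 433 values recomputed under other settings, 329 stayed within 1.5 times the reported one and 104 moved beyond it, and none changed direction; the cause was not tested except where the setting itself changes the number of genes or libraries. With TPM in place of CPM, H7 lost 37 genes and 7 were lost in all 3 clones. At a limit of 5%, F5 lost 10 and all 3 clones 4; at 20%, 146 genes met the rule, 72 in F5, 81 in G5 and 24 in all 3. With a parental minimum of 5 CPM, 52 met it, 16 in F5, 24 in G5, 34 in H7 and 6 in all 3; with 1 CPM it was 49 in F5, 69 in G5, 88 in H7 and 21 in all 3. With medians in place of means, F5 lost 15 and all 3 clones 4. TMM or DESeq2 factors left 90 of the 92, without Cd24a and Cdo1.

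DESeq2 called 419 genes between the third and first library, where edgeR called 164. It called 7 of the 92 higher in that contrast, 3 genes lost in H7 alone between F5 and G5, and 9 chromatin genes lower in G5. Without a filter on low counts, 2 of the 92 were lower in the middle library, 329 genes and 8 of the 92 higher were called between the third and first, 2 lost in H7 alone between F5 and G5, and 2 higher and 4 lower chromatin genes in F5 and 2 lower in G5. The passage number as a replicate block left 0 of the genes lost in H7 alone called between F5 and G5 and changed no other count by more than 1.5 times. The order of passage as a replicate block, chosen after seeing the data, called 4226 genes in F5, 3948 in G5 and 4808 in H7 against the parental line. It called 2 genes lost in H7 alone and 4 lost in F5 alone between the other clones, 85 neighbours lower and 28 higher, and 11 chromatin genes higher and 24 lower in F5, 14 and 15 in G5, and 16 and 23 in H7. Neighbours within 100 kb alone gave 8 higher. The clone libraries alone, also chosen after seeing the data, gave 30 of the 92 higher and 2 lower in the middle library.

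With each library left out in turn, 66 to 107 genes met the rule, 12 to 42 in F5, 34 to 60 in G5, 42 to 62 in H7 and 5 to 16 in all 3. Genes called against the parental line numbered 1226 to 2142 in F5, 1128 to 2044 in G5 and 1823 to 2822 in H7. The middle library had 3364 to 4839 genes called, with 29 to 47 of the 92 higher and 1 to 2 lower. The third against the first had 19 to 1350, with 1 to 14 of the 92 higher and 0 to 3 lower. Between the clones that kept a gene, 14 to 17 lost in G5 alone, 2 to 2 lost in F5 alone and 0 to 2 lost in H7 alone were called. Neighbours ranged over 41 to 61 lower and 11 to 16 higher, and chromatin genes over 2 to 5 higher and 4 to 10 lower in F5, 3 to 6 and 2 to 6 in G5, and 6 to 10 and 9 to 12 in H7. By library, calls against the parental line fell beyond 1.5 times without any 1 of the F5 libraries in F5, any 1 of the G5 libraries in G5 and H7 passage 7 in H7. Losses in F5 were 12 without parental passage 7, and losses in all 3 were 5. The third against the first had 19 genes without G5 passage 9 and 1350 without parental passage 7, and it moved beyond 1.5 times without each other library except H7 passage 8 (225). Neighbours called higher were 11 without G5 passage 8, H7 passage 7 or parental passage 8. Chromatin genes higher in F5 were 2 without any 1 clone library, and those lower in G5 were 2 to 3 without G5 passage 7, G5 passage 8 or parental passage 8. Those lower in F5 were 4 without F5 passage 7 or 9, those higher in G5 were 3 without G5 passage 7 or 8, and those higher in H7 were 6 without H7 passage 8. The planned change of the promoter comparison was not run, since too few promoters matched. Depth limits the losses at 0 counts, whose folds are lower bounds.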

Other observations

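Relatives and partners of some lost genes, listed after those genes were known, were higher, lower or not called depending on the gene and the clone. Mccc1, the alpha subunit that pairs with Mccc2 in methylcrotonyl-CoA carboxylase, averaged 18.1 ± 3.46 CPM in F5, 18.8 ± 4.29 in G5, 16.6 ± 2.49 in H7 and 16.8 ± 5.57 in the parental line (SD, n = 3 each), and edgeR called it in no clone (adjusted p of 0.817, 0.738 and 0.979). Sulf2, the other heparan sulfate 6-O-endosulfatase beside Sulf1, averaged 87.9 ± 10.0 CPM in F5, 66.5 ± 11.3 in G5, 18.8 ± 1.53 in H7 and 39.2 ± 7.96 in the parental line. It rose in F5 and G5, by 1.16 and 0.75 on the log2 scale (edgeR adjusted p of 0.000858 and 0.00902), and fell in H7 by 1.03 (adjusted p of 0.0011). H7 also had 0 counts of Sulf1.

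Erbb2, a receptor kinase that pairs with Egfr, averaged 59.1 ± 4.22 CPM in F5, 60.5 ± 4.53 in G5, 44.8 ± 1.66 in H7 and 71.7 ± 4.52 in the parental line. It fell by 0.28 on the log2 scale in F5 and by 0.65 in H7 (edgeR adjusted p of 0.0375 and 0.000293), and its log2 fold change of -0.26 in G5 was not called (adjusted p of 0.0556). Nfix, a relative of Nfia, fell in H7 by 0.37 (adjusted p of 0.00966), while Nfib and Nfic were called in no clone. Mecom, a relative of Prdm16, fell in each clone, by 0.54, 0.39 and 0.59 in F5, G5 and H7. Cemip2, a cell-surface hyaluronidase related to Cemip, fell by 0.85 in F5 and 0.74 in G5. Against the parental line 14.3%, 13.1% and 19.6% of all genes were called in F5, G5 and H7.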
